A study of Amolops torrentis with 15 samples.

Results

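The comparison described here sets brains of female torrent frogs (Amolops torrentis) that had received sound against brains of frogs that had received none. It uses all 15 RNA-seq libraries of the series. The 6 libraries with sound are the 3 audiovisual and the 3 acoustic ones, and the 9 libraries without sound are the 3 visual, the 3 blank contrast and the 3 dark contrast ones. Libraries were chosen by their stimulus labels alone, and each stimulus group had equal weight. The effect of sound is the mean of the audiovisual and acoustic groups minus the mean of the visual, blank contrast and dark contrast groups.

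The study, by its title, asked how the brains of females respond to acoustic and visual sexual cues. Whole brains were taken in all 5 groups, which the labels separate by stimulus only. What the blank and dark contrast frogs were exposed to is not stated in the labels, and neither are the length of a stimulus, the age of the frogs and the number of brains in a library. Each p-value is thus relative to the spread among the libraries deposited, part of which may be technical.

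In frogs, airborne sound is detected by hair cells of the inner ear and relayed through the auditory hindbrain and the midbrain torus semicircularis to the forebrain, where a female's response to a mating call is also shaped by reproductive hormones. Neurons that fire strongly switch on activity-regulated genes, among them transcription factors such as FOS and EGR1 and effectors such as ARC and BDNF that act on synapses. Those induced fastest are called immediate early genes. These genes are widely used to mark where a stimulus has excited the brain. In a whole brain, auditory nuclei are a small part of the tissue, and a lower level in a bulk library cannot be told apart from fewer cells of a type.

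The deposited table lists estimated read counts for 44351 clustered transcripts, called features here, with no genome position. Levels are given in CPM, the counts of a feature relative to the total of its library after TMM scaling between libraries. Library totals averaged 15.4 ± 1.03 M counts (M for mega) with sound and 13.4 ± 1.20 M without (SD, n = 6 and n = 9). Their ranges were 13.9 to 16.8 M with sound and 12.1 to 15.7 M without, and the difference of 2.07 M passed an exact two-sided permutation test over all 5005 divisions of the libraries (exact p = 0.00639). Depth thus moved with the comparison, so counts were also thinned to the smallest library, after which edgeR called 0 features, with 1802 at an unadjusted p under 0.05. The full counts gave 0 calls as well, so the calls after thinning cannot show what depth did. The share of mitochondrially encoded counts was 5.71 ± 0.765% with sound and 5.50 ± 0.773% without (exact permutation p = 0.600).

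By edgeR, no feature differed between the sound and no-sound libraries after adjustment over all features. The edgeR quasi-likelihood test called 0 of 42619 features (0.0%) at an adjusted p under 0.05, and the lowest adjusted p was 0.340, shared by 4 features. At an unadjusted p under 0.05 there were 1858 features (4.36%), of which 990 were higher with sound (2.32%) and 868 lower (2.04%). At an unadjusted p under 0.001 there were 40 (0.0939%). The limma test on log2(FPKM + 1) also called 0, with 1958 features at an unadjusted p under 0.05, whereas DESeq2 called 18, with 2054 at that level. The median log2 fold change over all features was 0.0035, with 50.8% of features above 0. The median absolute log2 fold change of 0.15 was smaller than the median standard error of 0.24, and 314 features had an absolute log2 fold change of at least 1.

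Of the 18 features that DESeq2 called, 8 were higher and 10 lower with sound, and 6 carry a gene symbol. These are Khk, RASAL2 and cga, which were higher, and lsm14b-a, CGREF1 and Smn1, which were lower. In edgeR the adjusted p of the 18 ran from 0.340 to 1.0. The genes named next are those with a symbol and the smallest p by edgeR, 10 in each direction, and none of them passed edgeR's test.

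Khk, ketohexokinase, the enzyme that phosphorylates fructose, had the smallest p among the higher genes. It stood at 13.8, 10.8 and 7.47 CPM in the audiovisual libraries and 3.72, 6.10 and 9.29 CPM in the acoustic ones, against 4.63, 4.88 and 4.25 CPM in the visual, 6.67, 3.40 and 5.38 CPM in the blank contrast and 1.35, 1.38 and 1.62 CPM in the dark contrast libraries. Thus 4 of the 6 sound libraries were above every library without sound, and the 3 dark contrast libraries were the lowest of all. The log2 fold change was 1.34 (SE 0.218, edgeR adjusted p = 0.340). Without the dark contrast group it was 0.76. A less abundant feature of Khk had a log2 fold change of 0.28 (SE 0.458), and the summed counts of both features gave 0.94.

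Also higher were mad2l2 and Slc36a1. The mad2l2 product is a subunit of the translesion DNA polymerase zeta and a checkpoint protein. Its feature Cluster-46846.190301 stood at 44.7, 45.2 and 63.4 CPM in the audiovisual and 66.4, 47.0 and 52.7 CPM in the acoustic libraries, against 27.8 to 42.3 CPM in the 9 libraries without sound. The groups did not overlap (log2 fold change 0.52, SE 0.110, edgeR adjusted p = 1.0). Slc36a1, a proton-coupled transporter of small amino acids, ran from 47.9 to 58.2 CPM with sound and from 21.8 to 52.1 CPM without, where 7 of the 9 libraries were below every sound library. Its log2 fold change was 0.62 (SE 0.142), and 0.36 without the blank contrast group, whose libraries stood at 22.0, 21.8 and 27.0 CPM.

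The remaining higher genes overlapped between the groups. RASAL2, a GTPase-activating protein for Ras, had a median of 3.37 CPM with sound and 1.32 CPM without (log2 fold change 1.09, SE 0.228), but the sum of its 5 features, of which the others are more abundant, had 0.11. Glo1, which detoxifies methylglyoxal, ran from 37.5 to 60.3 CPM with sound and from 19.6 to 48.8 CPM without (0.68, SE 0.163). Abcc8, the sulfonylurea receptor of ATP-sensitive potassium channels, ran from 22.4 to 35.2 CPM with sound and from 6.27 to 26.9 CPM without (0.78, SE 0.183), and the sum of its 5 features had 0.15. For both genes 4 of the 6 sound libraries were above every library without sound. The log2 fold changes of saal1, of Dctn4, a subunit of the dynein activator dynactin, and of Adarb1, an enzyme that edits adenosine to inosine in RNA, were 0.83, 0.75 and 0.51. Sums over the features of Dctn4 and Adarb1 had 1.17 and 0.06.

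Among the lower genes, lsm14b-a had the smallest p. Its product belongs to a family of RNA-binding proteins of ribonucleoprotein granules. The feature stood at 17.6, 6.77 and 19.0 CPM in the audiovisual and 60.1, 31.7 and 63.9 CPM in the acoustic libraries, against 55.7, 71.9 and 57.2 CPM in the visual, 81.7, 47.7 and 76.3 CPM in the blank contrast and 94.2, 83.6 and 81.8 CPM in the dark contrast libraries. The audiovisual libraries were the 3 lowest, while 2 of the 3 acoustic libraries lay within the range of the libraries without sound. The log2 fold change was -1.38 (SE 0.227, edgeR adjusted p = 0.340). Taken separately, it was -2.09 where a visual cue was present and -0.57 where it was not.

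CGREF1, a secreted protein with calcium-binding EF hands, was lower in both sound groups. It stood at 3.59, 4.99 and 4.36 CPM in the audiovisual and 1.22, 3.17 and 3.46 CPM in the acoustic libraries, against 4.81 to 25.2 CPM without sound. Only 1 library without sound, dark contrast 1, was below the highest sound library. The log2 fold change was -2.10 (SE 0.385, edgeR adjusted p = 0.613). A more abundant feature of CGREF1 ran from 23.7 to 49.0 CPM with sound and from 21.5 to 66.4 CPM without, with a log2 fold change of 0.10 (SE 0.259).

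Smn1, which assembles spliceosomal ribonucleoproteins, had the largest negative value among the named genes. The feature ran from 1.83 to 4.47 CPM in all 6 sound libraries, against 19.8, 6.27 and 37.6 CPM in the visual, 44.7, 44.5 and 1.49 CPM in the blank contrast and 57.3, 3.51 and 20.1 CPM in the dark contrast libraries. The libraries without sound were widely spread, and 7 of the 9 were above every sound library. The log2 fold change was -3.00 (SE 0.718, edgeR adjusted p = 1.0). The other 4 features of Smn1 had log2 fold changes between -0.47 and -0.02.

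GRID2IP encodes delphilin, which in mouse binds the delta 2 glutamate receptor at cerebellar synapses. It ran from 34.8 to 49.6 CPM with sound and from 47.5 to 84.5 CPM without, where 8 of 9 libraries were above every sound library (log2 fold change -0.65, SE 0.151). MYH10, a non-muscle myosin heavy chain, had a log2 fold change of -0.55 (SE 0.121). Sums over the features of GRID2IP and MYH10 had -0.44 and -0.27. The centrosome and cilium genes cep131 and FBF1 had -0.60 (SE 0.132) and -1.14 (SE 0.257). The sum of the cep131 features had -0.40, and the sum of both FBF1 features had -0.01. The named FBF1 feature was lower in the audiovisual libraries (0.629, 0.499 and 0.538 CPM) than in any other library. CCDC167, CCDC186 and ANAPC13, the last a subunit of the anaphase-promoting complex, had log2 fold changes of -1.50, -1.12 and -0.97, and for each 8 of 9 libraries without sound were above every sound library.

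**Figure D1:**
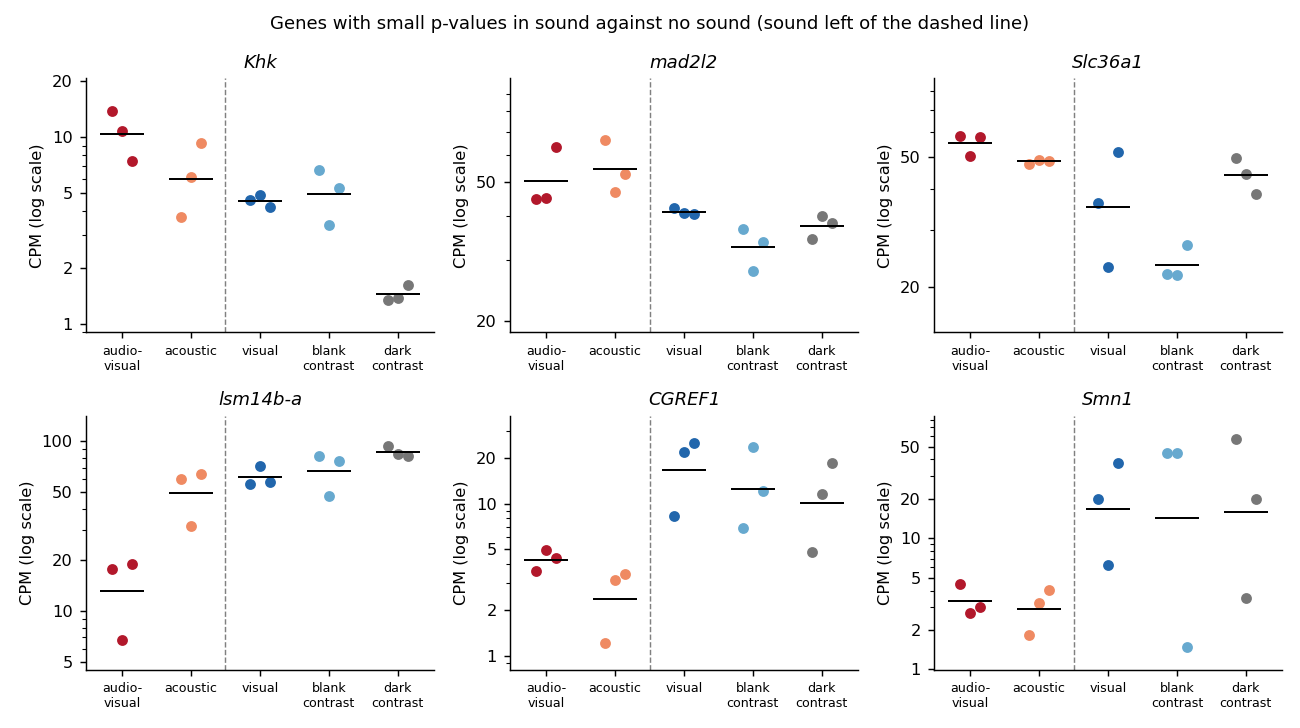
CPM per library (points, log scale) of 6 of the genes with the smallest p-values, with the geometric mean of 3 libraries as a bar, by stimulus group. The audiovisual and acoustic libraries are left of the dashed line. Khk was lowest in the dark contrast libraries (1.35 to 1.62 CPM), lsm14b-a lowest in the audiovisual ones (6.77 to 19.0 CPM), and Smn1 was spread from 1.49 to 57.3 CPM without sound.

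A gene symbol often stands on several features, among which reads of the gene can be divided. Of the 23 genes named by smallest p or by groups that did not overlap, 18 have several tested features. Their 41 other features had the sign of the named feature in 20 cases and the opposite sign in 21. When counts were summed per symbol, the log2 fold change of 11 of the 18 genes came to less than 0.5 of that of the named feature, and for RAB2B its sign reversed. The 5 genes with 1 tested feature were saal1, cga, Glo1, CCDC167 and CCDC186.

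In several genes the named feature and another feature of the same gene had fold changes of opposite sign. For lsm14b-a, a second feature (Cluster-46846.161109) stood at 110, 101 and 96.4 CPM in the audiovisual and 78.8, 102 and 58.4 CPM in the acoustic libraries, against 27.7 to 73.5 CPM without sound. Its log2 fold change was 0.75 (SE 0.208), opposite to the -1.38 of the named feature, and the sum of all 4 features of the gene had -0.02 (SE 0.0936). These second features were singled out after their values were seen.

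RAB2B, a small GTPase of Golgi traffic, has 2 features with adjoining cluster numbers. Cluster-46846.121709 ran from 7.41 to 12.2 CPM with sound and from 12.3 to 18.0 CPM without, with no overlap (log2 fold change -0.54, SE 0.145). Cluster-46846.121708 ran from 10.6 to 20.4 CPM with sound and from 7.84 to 13.97 CPM without (0.56, SE 0.171). Their sum had a log2 fold change of 0.04 (SE 0.0977). The second feature of mad2l2 had a log2 fold change of -0.33 (SE 0.179), against 0.52 for the named one and 0.20 (SE 0.0722) for the sum. For ANAPC13 the second feature had 0.60 (SE 0.361), against -0.97 for the named one and -0.13 (SE 0.200) for the sum. The labels and files do not say whether such features are splice forms, alleles or pieces of 1 transcript.

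**Figure D2:**
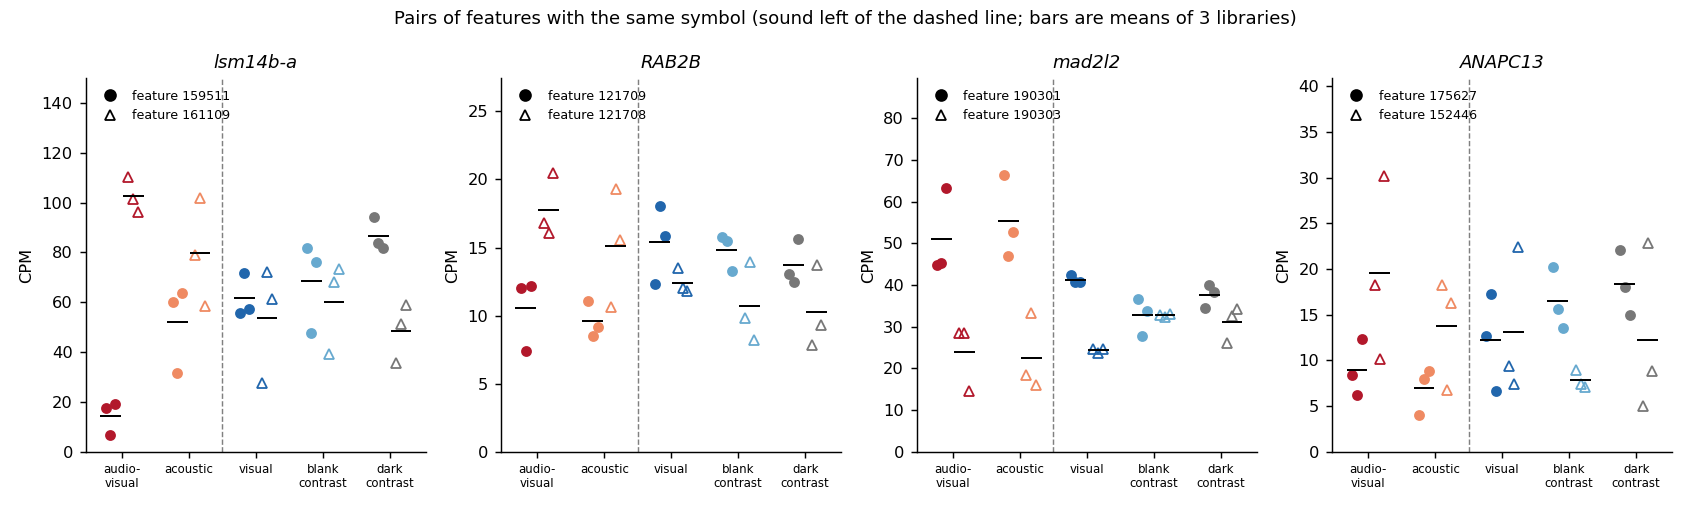
CPM per library of 2 features for each of 4 genes, with the named feature as filled circles, the second feature as open triangles and bars for means of 3 libraries. The audiovisual and acoustic libraries are left of the dashed line. For lsm14b-a the 2 features had log2 fold changes of -1.38 and 0.75, and for RAB2B -0.54 and 0.56.

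Non-overlap of the 6 sound libraries and the 9 others was found in 13 of 42619 features (0.0305%). Of these, 9 were higher with sound (0.0211%) and 4 lower (0.00939%). Any feature without ties is separated by the division that takes its 6 highest libraries, and by the one that takes its 6 lowest. A random draw from the 5005 divisions would thus on average also separate some of the 42619 features. How many was not counted, so these numbers are a description only and do not set the features apart. With counts thinned to the smallest library there were 16 such features, 8 in each direction, of which 7 were among the 13. The 4 with a symbol were mad2l2 and Pea15, which were higher, and Rtn4ip1 and RAB2B, which were lower. Pea15, a phosphoprotein of astrocytes that binds ERK kinases, ran from 5.69 to 9.33 CPM with sound and from 2.34 to 5.56 CPM without (log2 fold change 0.74, SE 0.197). Rtn4ip1, a mitochondrial protein, ran from 12.7 to 14.1 CPM with sound and from 14.9 to 18.9 CPM without (-0.25, SE 0.0917).

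Among the 9 features without a symbol, 2 shared the lowest edgeR adjusted p of 0.340 and were singled out after their values were seen. Cluster-46846.163591 stood at 69.9, 116 and 77.2 CPM in the audiovisual and 70.3, 75.4 and 82.3 CPM in the acoustic libraries, against 33.5 to 63.6 CPM without sound. Its log2 fold change was 0.89 (SE 0.148), with 0.86 both where a visual cue was present and where it was not. Cluster-46846.184988 ran from 1.51 to 4.05 CPM with sound and from 0.571 to 1.34 CPM without (log2 fold change 1.48, SE 0.226). The deposited table lists no protein match for either. The feature with the widest gap, Cluster-46846.131811, ran from 2.58 to 3.98 CPM with sound and from 1.01 to 2.27 CPM without, and its closest match in the deposited annotation is the transposase of a Tcb1 element of pike.

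None of the immediate early genes passed the test, and all overlapped widely between the groups. FOS, a partner in the AP-1 transcription factor, stood at 27.9, 19.7 and 19.0 CPM in the audiovisual and 28.0, 15.9 and 15.7 CPM in the acoustic libraries, against 31.4, 20.6 and 14.4 CPM in the visual, 28.2, 25.5 and 14.6 CPM in the blank contrast and 17.9, 1.93 and 23.2 CPM in the dark contrast libraries. The ranges overlapped throughout, and the lowest library was dark contrast 2. The log2 fold change was 0.12 (SE 0.376), and -0.05 without dark contrast 2.

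The egr1 feature, an activity-regulated zinc finger factor by its Swiss-Prot match but a zinc finger and SCAN domain protein by its other deposited match, ran from 111 to 193 CPM with sound and from 24.9 to 175 CPM without (log2 fold change 0.32, SE 0.255). NPAS4, a calcium-dependent neuronal transcription factor, ran from 12.5 to 19.6 CPM with sound and from 2.20 to 21.0 CPM without (0.38, SE 0.275). JUNB, another AP-1 partner, ran from 48.3 to 74.2 CPM with sound and from 14.7 to 71.7 CPM without (0.13, SE 0.256). In all 3 the lowest of the 15 libraries was again dark contrast 2, at 24.9, 2.20 and 14.7 CPM. Counting it, 4 libraries without sound were below every sound library for egr1, 3 for NPAS4 and 3 for JUNB.

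Effector genes gave similar values. ARC, which moves receptors at synapses, ran from 71.3 to 99.0 CPM with sound and from 20.5 to 129 CPM without (log2 fold change 0.15, SE 0.223). HOMER1, a postsynaptic scaffold, had a log2 fold change of 0.18 (SE 0.121), and BDNF, a neurotrophin, had 0.12 (SE 0.139). Nptx2, a secreted protein that clusters glutamate receptors and had the smallest p of the effectors, ran from 92.1 to 119 CPM with sound and from 57.3 to 105 CPM without (0.23, SE 0.112). Without the dark contrast group, FOS, ARC, JUNB and BDNF had log2 fold changes of -0.10, -0.12, -0.0017 and -0.00020, whereas egr1, NPAS4 and HOMER1 had 0.03, 0.11 and 0.11. Leaving out the dark contrast group thus changed the sign of 4 of these 7 genes, whose values with that group were smaller than their SE.

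Over the whole list of immediate early transcription factors, 11 of 19 features were above 0 and the median log2 fold change was 0.05, against 0.0035 for all features. For the activity-induced effectors 20 of 28 were above 0, with a median of 0.09. Of all features 50.8% were above 0. With a visual cue 13 of the 28 effectors were above 0 (median -0.01), and without one 22 (median 0.14). For the early factors these counts were 12 and 9 of 19. Without the dark contrast group the medians were -0.02 for the early factors and 0.03 for the effectors. No member of either list was called, and none had an unadjusted p under 0.05, against 4.36% of all features. FOSL2, a Fos-related factor, had the smallest p of the early factors and a negative value (-0.46, SE 0.251).

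**Figure D3:**
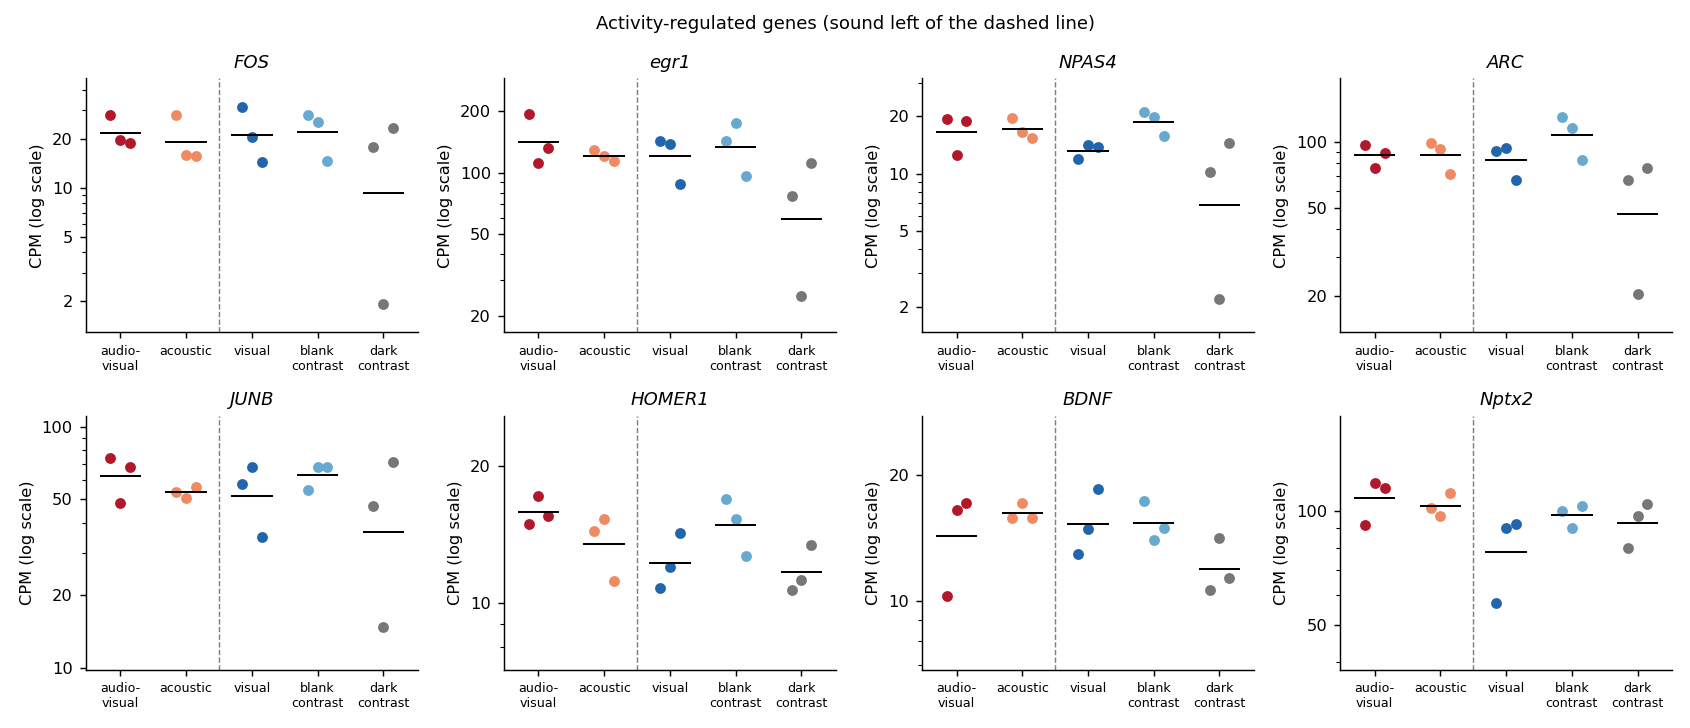
CPM per library (points, log scale) of 8 activity-regulated genes, with the geometric mean of 3 libraries as a bar. The audiovisual and acoustic libraries are left of the dashed line. Dark contrast 2 was the lowest library for FOS (1.93 CPM), egr1 (24.9 CPM), NPAS4 (2.20 CPM), ARC (20.5 CPM) and JUNB (14.7 CPM). The ranges of the remaining libraries overlapped between sound and no sound.

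Of 49 features that carry calcium and cAMP signals to the nucleus, 26 were above 0 and the median log2 fold change was 0.01. An unadjusted p under 0.05 was reached by 4 of the 49, and by 4.36% of all features. Among the 4, 1 was higher, CRTC2 (0.69, SE 0.266), a coactivator of CREB, and 3 were lower. These were ELK1 (-0.90, SE 0.313), a transcription factor driven by ERK, ATF1 (-0.34, SE 0.142), a factor of the CREB family, and CAMK2G (-0.25, SE 0.110), a calmodulin-dependent kinase subunit. None of the 4 was called by edgeR.

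Genes of hearing were also measured in the brain. Of 11 features on the list of hair cell and inner ear genes, 4 were above 0 and the median was -0.04. Harmonin (USH1C), a scaffold of hair bundles, had features on both sides. Cluster-46846.123039 ran from 19.6 to 37.3 CPM with sound and from 14.1 to 36.4 CPM without (0.52, SE 0.204), and Cluster-46846.123042 ran from 0.609 to 4.27 CPM with sound and from 1.70 to 7.29 CPM without (-0.91, SE 0.391). The sum of the gene's features had 0.06. Otoferlin (otof), which drives transmitter release from hair cells, ran from 74.6 to 120 CPM with sound and from 66.5 to 102 CPM without (0.15, SE 0.0801).

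Among 49 features of ion channels and calcium buffers typical of auditory neurons, 27 were above 0 (median 0.03). None of them was called by edgeR.

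The lists of synaptic transmission stayed near 0. Of 98 features of glutamate receptors and postsynaptic scaffolds, 56 were above 0 (median 0.02), with 1 feature of dlg2, a scaffold of the postsynaptic density, at 0.21 (SE 0.0952) and the sum of its features at 0.09. Of 47 features of GABA and glycine transmission 31 were above 0 (median 0.04). There slc32a1, the vesicular transporter of both transmitters, ran from 38.6 to 73.6 CPM with sound and from 48.5 to 103 CPM without (-0.52, SE 0.201), whereas the sum with its second feature had -0.07. Of 61 features of synaptic vesicles 35 were above 0 (median 0.03), with the priming factor UNC13B at 0.42 (SE 0.189) for 1 of its 5 features and 0.07 for their sum. Of 31 features of dopamine, serotonin and noradrenaline genes 14 were above 0 (median -0.02), with the serotonin receptor HTR1B at -0.17 (SE 0.0981).

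Reproductive neuropeptides and steroid genes showed no called member either. Of 16 features, 9 were above 0 and the median log2 fold change was 0.02. The precursor of gonadotropin-releasing hormone, gnrh1, ran from 6.03 to 34.0 CPM with sound and from 7.21 to 44.9 CPM without (-0.65, SE 0.427), and gnrh2 ran from 14.3 to 17.7 CPM with sound and from 11.3 to 18.4 CPM without (0.14, SE 0.116). Aromatase (CYP19A1), which makes estrogen, had 0.30 (SE 0.239), and TAC1, the precursor of substance P, had -0.57 (SE 0.269).

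The largest positive values among the named genes belonged to hormones of the pituitary. The glycoprotein hormone alpha subunit cga, shared by the gonadotropins and thyrotropin, stood at 654, 1.28 and 1888 CPM in the audiovisual and 7.30, 3.30 and 102 CPM in the acoustic libraries, against 0.696 to 14.3 CPM without sound. Only 3 of the 6 sound libraries were above the others. The log2 fold change was 4.79 (SE 1.08, edgeR adjusted p = 1.0), ranged from 3.38 to 5.14 with 1 library left out at a time, and was 3.71 with the sample number as a block.

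The melanocortin precursor pomc, chosen after its values were seen, had 1820, 54.3 and 7712 CPM in the audiovisual and 266, 1941 and 66.8 CPM in the acoustic libraries, against 11.7 to 5055 CPM without sound (3.28, SE 0.938). Its log2 fold change ranged from 2.18 (without acoustic 2) to 4.01 with 1 library left out, and was 1.52 with all libraries pooled into 2 groups and 5.09 without the dark contrast group. Its highest library without sound was dark contrast 2. Of 4 pituitary markers 2 were listed, and their summed level ran from 55.6 to 9600 CPM with sound (median 1109) and from 19.6 to 5070 CPM without (median 70.6). How much pituitary tissue each brain sample held was not tested. CHGA, a granin of secretory granules, ran from 122 to 881 CPM with sound and from 10.5 to 549 CPM without (1.25, SE 0.598), and 0.40 for the sum of its features, while 12 of 15 features of granins and prohormone convertases were above 0 and their median was 0.04.

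Of 33 features of heat shock factors and chaperones 13 were above 0 and the median log2 fold change was -0.12. The 4 at an unadjusted p under 0.05, a level reached by 4.36% of all features, were hspa5, the chaperone of the endoplasmic reticulum, at -0.26 (SE 0.0910), HSP90AA1 at -0.21 (SE 0.0762), Hsph1 at -0.40 (SE 0.182) and Hsf2 at 0.22 (SE 0.0862). The hspa5 feature ran from 184 to 261 CPM with sound and from 208 to 347 CPM without, where 5 of 9 libraries were above every sound library. None was called, and the most abundant members, Hspa8 and Hsp90ab1, had log2 fold changes of -0.03 (SE 0.0648) and 0.00 (SE 0.0544). Of 100 cytosolic ribosomal protein features 23 were above 0 (median -0.05), and their median ran from -0.08 to 0.0021 with 1 library left out at a time. With a visual cue 22 of the 100 were above 0 (median -0.06), and without one 46 (median -0.01). Only 1 of the 100 had an unadjusted p under 0.05, against 4.36% of all features, and it was higher with sound. All 8 mitochondrially encoded transcripts were above 0 (median 0.08). With a visual cue 2 of the 8 were above 0 (median -0.08), and without one 6 (median 0.14). Without the dark contrast group their median was 0.008. Of 30 circadian clock features 16 were above 0 (median 0.04), with CRY1 at 0.37 (SE 0.156).

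Markers of cell types gave no called feature. Median log2 fold changes were 0.03 for 21 neuronal, 0.08 for 9 astrocyte and radial glia, 0.0033 for 19 oligodendrocyte, -0.15 for 7 microglia and immune, 0.04 for 9 ependyma and choroid plexus and -0.08 for 12 vascular features. Of the 9 astrocyte and radial glia features 6 were above 0. The astrocyte glutamate transporter SLC1A3 ran from 42.8 to 66.0 CPM with sound and from 23.4 to 59.7 CPM without (0.31, SE 0.136). Summed levels of the defining astrocyte and radial glia markers, of which 4 of 5 were listed, had a median of 2835 CPM with sound and 3142 CPM without. None of the 4 defining markers of microglia or the 3 of photoreceptors was among the symbols of the features tested. Summed levels of the defining neuronal markers, of which 3 of 5 were listed, ran from 3023 to 3372 CPM with sound and from 3035 to 3393 CPM without. A scarce feature of the hemoglobin gene HBB had a log2 fold change of 1.06 (SE 0.459), or 0.27 without acoustic 3, while the abundant one had 0.10 (SE 0.262). Over all 25 lists, 23 of 674 distinct features had an unadjusted p under 0.05 (3.41%), against 4.36% of all features.

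**Figure D4:**
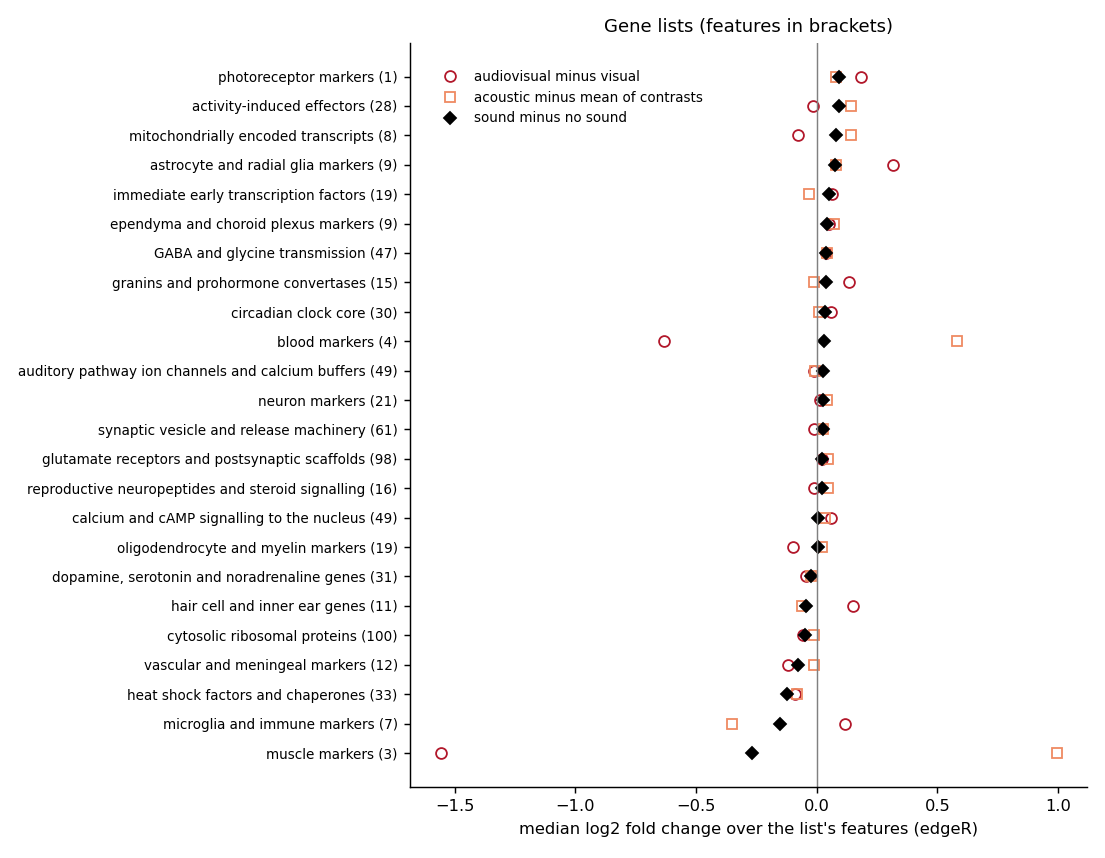
Median edgeR log2 fold change of each gene list for sound minus no sound (diamonds), audiovisual minus visual (circles) and acoustic minus the mean of the contrasts (squares), with the number of features in brackets. The list of 3 pituitary features is left out because its median, 3.28, lies far to the right. The diamonds of all lists except muscle, microglia and heat shock lie within 0.1 of 0.

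The effect of sound can also be taken separately with and without a visual cue. Sound with a visual cue is audiovisual minus visual, and sound without one is acoustic minus the mean of the blank and dark contrasts. These 2 effects share no libraries. The combined effect is not their mean, because a visual cue has more weight on its sound side than on its side without sound. The mean of both was 1.22 for Khk (SE 0.225, edgeR adjusted p = 0.656). For lsm14b-a it was -1.33 (SE 0.230, edgeR adjusted p = 0.653). By edgeR, 0 of 42619 features were called with a visual cue (0.0%; 1949 or 4.57% at an unadjusted p under 0.05, lowest adjusted p 0.613). Without a visual cue 0 were called as well (0.0%; 1896 or 4.45%, lowest adjusted p 0.736). DESeq2 called 20 and 28.

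Across features the 2 effects showed no correlation. Pearson's r was -0.024 and Spearman's rho -0.011 over 42619 features, and 21214 features (49.8%) had the same sign. For the combined effect the median absolute log2 fold change (0.15) was below the median SE (0.24). A correlation near 0 thus cannot show whether the 2 effects were alike. At an unadjusted p under 0.05 in both, 55 features had the same sign (0.129%), which is 2.82% of the list with a visual cue and 2.90% of the list without. With opposite signs there were 93 (0.218%), 4.77% and 4.91% of the lists. Features are not independent replicates, and these shares are a description.

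The genes with the smallest p in the combined effect had the same sign with and without a visual cue, which their selection favours. Khk had 1.22 (SE 0.341) with a visual cue and 1.22 (SE 0.291) without, and CGREF1 had -2.09 (SE 0.568) and -2.29 (SE 0.539). For Khk without a visual cue, the acoustic libraries averaged 6.37 CPM, against 5.15 CPM in the blank and 1.45 CPM in the dark contrast libraries. Unequal pairs were lsm14b-a, with -2.09 (SE 0.350) and -0.57 (SE 0.297), FBF1, with -2.10 (SE 0.405) and -0.29 (SE 0.326), and cga, with 7.01 (SE 2.0) and 2.56 (SE 1.31).

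The difference of the 2 effects was tested in the same fit, and edgeR called 0 of 42619 features (0.0%; 1923 or 4.51% at an unadjusted p under 0.05). The lowest adjusted p, 0.0868, belonged to AKAP8L, a nuclear relative of the kinase A anchor AKAP8. It stood at 7.49, 19.7 and 19.8 CPM in the audiovisual and 2.91, 2.61 and 3.80 CPM in the acoustic libraries, against 2.54, 2.32 and 4.01 CPM in the visual, 8.38, 12.1 and 7.62 CPM in the blank contrast and 13.5, 20.5 and 8.91 CPM in the dark contrast libraries. The acoustic and visual libraries were the 6 lowest, so its effect of sound was 2.41 (SE 0.411) with a visual cue and -1.90 (SE 0.372) without, a difference of 4.31 (SE 0.555). The combined effect of sound was -0.07 (SE 0.254). Without audiovisual 1, edgeR called AKAP8L (difference 4.65, adjusted p = 0.00969), and likewise when counts were summed per symbol (4.32, adjusted p = 0.0232). Over all leave-one-out fits its difference ran from 4.10 to 4.65 and its edgeR adjusted p reached 0.594, without acoustic 2.

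The genes with the next smallest p in that test had an edgeR adjusted p of 0.560. Positive differences among them were tcta at 4.38 (SE 0.838) and C20orf194 at 1.23 (SE 0.232). The audiovisual libraries of tcta stood at 15, 16.6 and 11.6 CPM and the acoustic ones at 4.33, 1.87 and 0.542 CPM, against 3.30, 3.33 and 2.80 CPM in the visual and 4.78 to 29.5 CPM in the contrast libraries. Negative differences among them were UTP3, a factor of ribosome assembly in yeast, at -2.48 (SE 0.525), bbs2, a subunit of the cilium cargo complex BBSome, at -1.88 (SE 0.396), and a feature matched to Ctcf, a chromatin insulator, at -1.40 (SE 0.291), whose other deposited match is its relative BORIS. For bbs2 the sum of its features had 0.15.

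**Figure D5:**
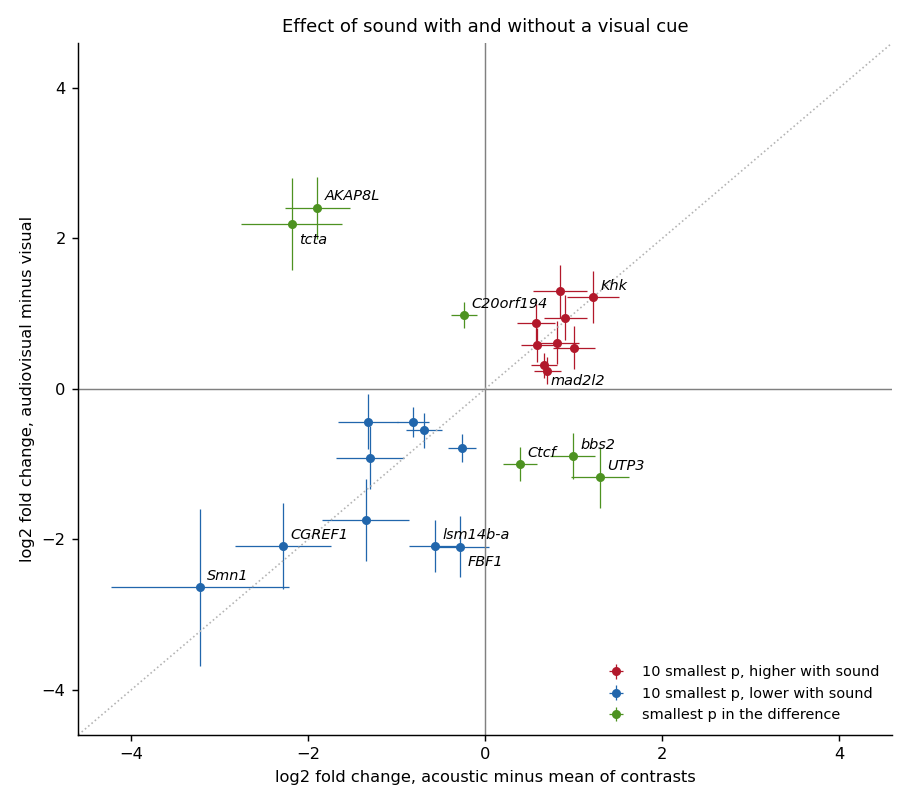
Log2 fold change of sound with a visual cue (vertical, audiovisual minus visual) against sound without one (horizontal, acoustic minus the mean of the contrasts), with bars of 1 SE, for the genes with the smallest p in the combined effect (red and blue; cga, at 7.01 and 2.56, is outside the frame) and in the difference (green). AKAP8L lies at 2.41 and -1.90, and the dotted line marks equal effects.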

How the data were processed

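Whole-brain RNA-seq of 15 libraries in 5 stimulus groups was used. The authors deposited estimated counts per clustered transcript, not normalized, and FPKM (fragments scaled by feature length and library size), per the file headers. Per the labels' protocols, libraries were made with the NEBNext Ultra kit from Trizol RNA. Assembler, aligner, counter and strand setting: not given in the sources used here. Gene symbols are those of the deposited Swiss-Prot match (18523 of 44351 features).

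Estimated counts were rounded to whole numbers (57.4% of the values were whole to within 1e-06). A filter required the FPKM of a feature to average 1 or more, which 42619 features met (17950 with a symbol). Their median was 65 counts per feature and library. The lowest deposited FPKM is 0.31, so features listed here were detected in every library. Counts were scaled by TMM and fitted with edgeR 4.0.16 (glmQLFit, glmQLFTest; R 4.3.3), with 5 group means, 10 residual degrees of freedom and a common biological coefficient of variation of 0.329. Contrasts were adjusted by Benjamini-Hochberg over all 42619 features, with a threshold of 0.05. Standard errors (SE) were derived from the log2 fold change and the F statistic. Library totals and shares were compared by exact permutation (scipy 1.17.1). Alternatives were DESeq2 1.42.0, limma 3.58.1 on log2(FPKM + 1) or log2(FPKM + 0.1), median-of-ratios scaling, other filters, thinned counts, sums per symbol, a block for the sample number, and leaving out each library or each group without sound.

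The genes named are the 10 with a symbol and the smallest p in each direction, up to 5 in each direction whose groups do not overlap, the most abundant feature of 7 activity-regulated genes, the feature with the smallest p of each list, and 3 in each direction for the difference of the 2 effects. One gene that this rule names is not reported here. Other list members are named because their unadjusted p was under 0.05 or for their role, and those were chosen after their values were seen. The comparison and the gene lists were chosen with earlier results of these data known. Libraries of a group were not duplicates (chi-square per degree of freedom between 14.6 and 25.4). No gene sequence or genome was used here.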

Additional observations from a re-analysis of the deposited data

Results flagged for a closer look

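In 178 groups of 6 sound or 9 no-sound libraries (named features, list means and library measures), 20 had a library far from the others by Dixon's criterion, which chance gives in about 1 of 20 groups. Dark contrast 2 was the low library for FOS (1.93 CPM), egr1 (24.9 CPM), NPAS4 (2.20 CPM), ARC (20.5 CPM), JUNB (14.7 CPM) and CCDC167 (0.827 CPM), and for the list of immediate early transcription factors, whose centred mean there was -1.11 in log2 CPM. These genes are not independent of each other, and its share of mitochondrially encoded counts, 4.33%, was the lowest of the 15 libraries. A part of RNA quality in this was not tested.

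Audiovisual 1 stood apart for egr1 (193 CPM, high), BDNF (10.3 CPM, low) and Dnah5 (0.818 CPM, low). Visual 1 was low for Nptx2 (57.3 CPM), CHGA (10.5 CPM) and SLC1A3 (23.4 CPM), and visual 3 for ANAPC13 (6.65 CPM) and Dnah5 (0.481 CPM). CGREF1 was low in acoustic 1 (1.22 CPM), elavl3, a neuronal RNA-binding protein, was low in blank contrast 2 (53.6 CPM), and USH1C was high in dark contrast 1 (36.4 CPM). The list of calcium and cAMP signalling had a centred mean of -0.055 in acoustic 2, and the list of blood markers one of 1.26 in acoustic 3.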

How the results depend on the processing

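DESeq2 called 18 features for sound, 20 with a visual cue, 28 without one and 47 in the difference, where edgeR called 0 in each. Beyond DESeq2, at most 1 feature was called under any alternative. For sound this was Cluster-46846.159936, a feature with no symbol, without visual 2 (1 feature, log2 fold change -3.22, edgeR adjusted p = 0.0191) or without the visual group (1 feature, -3.29, edgeR adjusted p = 0.0294). Only its acoustic libraries (0.136 to 0.436 CPM) and visual 2 (0.0774 CPM) were low. Its audiovisual libraries stood at 16.7, 10.4 and 23.3 CPM, and its effect of sound over all libraries was 0.41 with a visual cue. With a visual cue the called feature was LHFP without audiovisual 1 (-2.09, edgeR adjusted p = 0.0151). LHFP stood at 29.5 CPM in audiovisual 1, against 5.56 and 6.82 CPM in audiovisual 2 and 3. Without a visual cue it was Cluster-46846.159936 without visual 2 (-6.21, edgeR adjusted p = 0.00256) or Cluster-46846.184923 without dark contrast 1 (-3.77, edgeR adjusted p = 0.0384). The latter stood at 0.506 CPM in dark contrast 1, against 3.40 to 4.42 CPM in the other contrast libraries. In the difference it was AKAP8L without audiovisual 1 (4.65) or summed per symbol (4.32). Leaving out 1 library thus gave 0 to 1 calls in each comparison. With the replicate block edgeR called 0 in each, with 1886, 1979, 1935 and 1956 features at an unadjusted p under 0.05. Same-numbered libraries did not deviate together (r from -0.03 to 0.04 in 30 pairs, 5 of 15 libraries closest to their own number), so numbers were not taken as pairs.

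Of 1739 values of the 61 named features under alternatives, 11 reversed. With 1 library left out, FOS ran from -0.053 (without dark contrast 2) to 0.30, JUNB from -0.0090 (without dark contrast 2) to 0.31 and GNAT2, a cone transducin subunit, from -0.011 (without acoustic 3) to 0.19, and FOS was also below 0 without acoustic 1. Without the dark contrast group, FOS (-0.10), JUNB (-0.0017), ARC (-0.12), BDNF (-0.00020) and GNAT2 (-0.048) reversed. Summed per symbol, RAB2B had 0.042 and bbs2 0.15. The causes were not tested. Several list medians changed sign with 1 library left out. The range was -0.053 to 0.135 for immediate early factors, -0.038 to 0.153 for astrocytes and radial glia and -0.437 to 0.245 for microglia. It was -0.030 to 0.094 for the circadian clock and -0.176 to 0.010 for vascular markers. Activity-induced effectors (0.064 to 0.130) and heat shock genes (-0.148 to -0.067) kept their sign. Of 700 list medians 692 moved by less than the spread between replicates. The other 8 were the muscle list (-0.87 with 2 pooled groups, -0.90 without the blank contrast and 0.67 without the visual group), the pituitary list (1.52 with 2 pooled groups, 4.87 without the dark contrast group) and the dopamine, serotonin and noradrenaline list, whose sign changed without acoustic 2 (0.05), blank contrast 3 (0.03) or dark contrast 2 (0.03).

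Limits: there are 3 libraries per group and the median SE was 0.24. Even log2 fold changes of 1.34 (Khk) and -1.38 (lsm14b-a) were not called by edgeR, though DESeq2 called both. Fold changes belong to features, not genes, and features absent from some libraries were not analysed here. Total counts differed between the groups compared. Thinning them left 0 calls by edgeR, but the full counts gave 0 calls too, so this cannot show what depth did. After thinning, the log2 fold changes of Khk and lsm14b-a were 1.32 and -1.36.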
